A study of Mus musculus with 15 samples.

Results

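The annexins are a family of proteins that bind membranes when calcium rises. The 8 genes described here, Anxa1, Anxa2, Anxa3, Anxa4, Anxa5, Anxa6, Anxa7 and Anxa11, were chosen by name from the 35519 genes to which transcripts of the tables were assigned, by a rule that used no measured value. RNA was measured in microglia, the resident macrophages of the retina, sorted as CD11b+, Ly6c- and Fcrls+ cells from C57BL/6 mice 12 weeks old. The groups were wild-type microbead-injected retinas (n = 3), wild-type sham-injected retinas (n = 4), Apoe-/- microbead-injected retinas (n = 4) and Apoe-/- sham-injected retinas (n = 4). Microbeads raise the pressure of the eye and model glaucoma, and the comparison addresses whether microglia without apolipoprotein E respond to that pressure as wild-type microglia do. The labels give no further detail of the Apoe allele, and they number retinas without saying whether these came from separate mice.

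Annexins attach to acidic phospholipids, above all phosphatidylserine, through a core of repeats that hold calcium. They gather at wounds of the plasma membrane, take part in exocytosis and endosome traffic, and, outside the cell, cover the phosphatidylserine that dying cells expose. Anxa1 is a glucocorticoid-regulated ligand of formyl peptide receptors, Anxa2 pairs with S100a10 and binds plasminogen, and Anxa5 is the protein used to stain apoptotic cells. In macrophages and microglia, annexins are known chiefly for phagocytosis, the repair of membranes and the limiting of inflammation.

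Libraries held 458111 to 714670 reads assigned to genes, and 6521 genes passed the filter on low counts. A gene at 0 reads could still have had 3 reads, which is 4.2 to 6.55 CPM before TMM scaling. After TMM scaling this floor was 3 CPM in wild-type microbead library 2 and up to 13.3 CPM in Apoe-/- sham library 2. CPM expresses reads relative to the size of their library, here after TMM scaling unless stated. Gene models of the major satellite, a centromere repeat, took 45.2% ± 7.22 of reads in wild-type microbead libraries, 61.3% ± 4.51 in wild-type sham, 64.1% ± 6.58 in Apoe-/- microbead and 67.8% ± 4.49 in Apoe-/- sham libraries (SD, n as above). Microglial markers (10 of 10 with reads) summed to 10000 to 12500 CPM in wild-type microbead libraries, 11900 to 13600 CPM in wild-type sham, 8400 to 13800 CPM in Apoe-/- microbead and 6880 to 13700 CPM in Apoe-/- sham libraries. In wild-type retinas, rod photoreceptor markers summed to 89.4 to 604 CPM with microbeads and to 542 to 2450 CPM with sham injection, and in Apoe-/- retinas to 164 to 2490 CPM with microbeads and to 143 to 1510 CPM with sham injection. Fits with the rod level as a covariate are given beside the Anxa2 and Anxa5 results and called 0 of the 5 tested annexins in any comparison, and the part of the satellite share in the annexin differences was not tested. In bulk samples, fewer cells of a type and less RNA per cell cannot be told apart.

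On the CPM scale the wild-type microbead and wild-type sham libraries did not overlap for 2 annexins, Anxa2 and Anxa5. Such an upward separation was found for 6.32% of the 6521 genes tested, which do not include Anxa2. The 250 bases before the RefSeq start sites of Anxa2 and Anxa5, on GRCm38.p6, are shown to set the pair side by side. Capitals mark matches to the motifs searched. The Anxa2 stretch is chr9:69453433-69453682 on the plus strand, and the Anxa5 stretch is chr3:36475888-36476137 on the minus strand, each written 5′ to 3′. The GENCODE genes used for the read counts start further out, at 69453620 for Anxa2 and 36475894 for Anxa5. Both starts fall inside these stretches, so the end of each stretch lies within the gene by that annotation.
Anxa2: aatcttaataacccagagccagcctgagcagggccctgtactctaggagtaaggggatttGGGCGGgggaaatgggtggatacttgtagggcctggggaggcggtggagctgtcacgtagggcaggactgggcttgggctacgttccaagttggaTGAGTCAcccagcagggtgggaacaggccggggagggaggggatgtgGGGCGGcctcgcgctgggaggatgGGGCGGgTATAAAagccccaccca
Anxa5: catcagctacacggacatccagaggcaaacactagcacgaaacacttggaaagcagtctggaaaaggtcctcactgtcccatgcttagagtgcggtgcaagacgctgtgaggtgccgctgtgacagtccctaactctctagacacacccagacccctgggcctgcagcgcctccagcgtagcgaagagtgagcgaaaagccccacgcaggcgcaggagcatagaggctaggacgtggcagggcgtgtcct
The motifs were looked for on both strands, none of them overlapping another in these stretches. The Anxa2 stretch held 1 AP-1 site (TGANTCA), 3 GC boxes (GGGCGG) and 1 TATA box (TATAAA), and at least 1 such match stood in 6.75%, 32.7% and 12.4% of 32851 promoter windows of the same length, in that order of motifs. Neither stretch held a CCAAT box (CCAAT, 33.8% of windows), an E-box (CACGTG, 6.02%), a PU.1 core (GAGGAA, 23.3%) or an NF-kB site (0.356%), and Anxa5 held none of the motifs searched. These matches describe letters in a window, not binding. Of the 8 annexins, 6 had a promoter entry, and Anxa3 and Anxa6 had none.

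Anxa3 was the most abundant annexin in every library. On the TPM scale, which corrects each gene for transcript length and each library for its total, Anxa3 averaged 69.1 ± 33.8 in wild-type microbead retinas (SD, n = 3), 44.7 ± 12.1 in wild-type sham, 39 ± 20.1 in Apoe-/- microbead and 33.1 ± 13.4 in Apoe-/- sham retinas (SD, n = 4 each). In wild-type sham retinas it ranked 266 of 35735 genes by TPM, while Anxa5 ranked 2930. Anxa3 exceeded Anxa5, the next in order, in 15 of 15 libraries, by 2.47 ± 0.69 on the log2(TPM + 1) scale (mean ± SD).

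**Figure D1:**
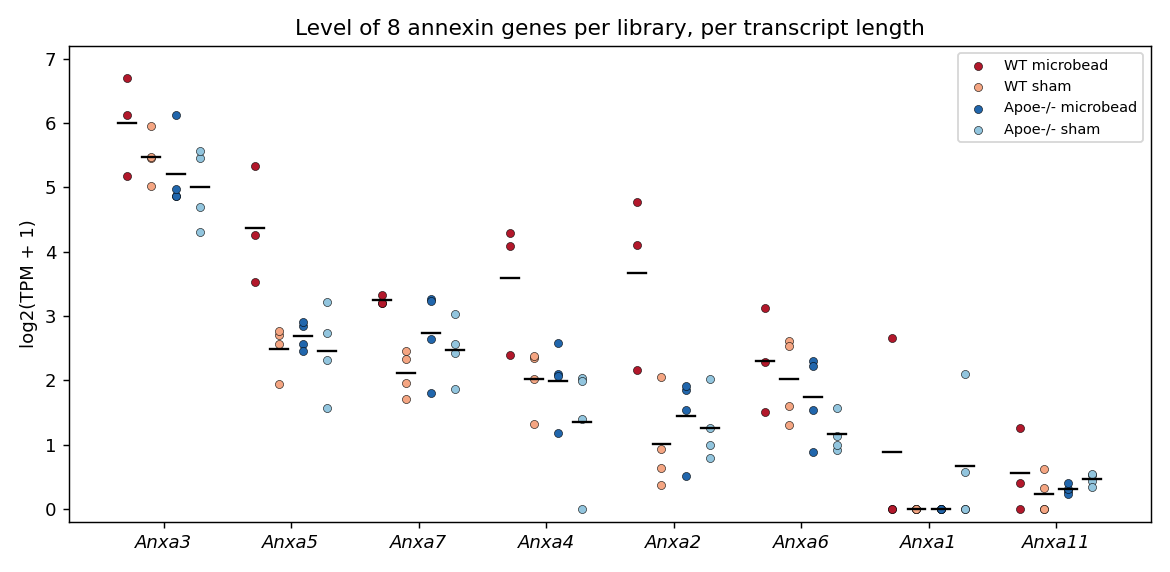
Each point is 1 library, placed by gene and group, with the level as log2(TPM + 1) on the vertical axis and a bar at the group mean. Anxa3 stands above Anxa5 in 15 of 15 libraries, the genes from Anxa5 to Anxa6 overlap, and Anxa1 and Anxa11 lie near 0 in most libraries.

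The middle of the order could not be resolved. Anxa5 averaged 8.59 TPM over the 15 libraries, Anxa7 5.53, Anxa4 4.8, Anxa2 4.3 and Anxa6 2.81 TPM. Anxa5 exceeded Anxa7 in 9 of 15 libraries, Anxa7 exceeded Anxa4 in 10, Anxa4 exceeded Anxa2 in 9 and Anxa2 exceeded Anxa6 in 5, and each of these differences was smaller than its SD over libraries. Anxa1 at 0.603 TPM and Anxa11 at 0.329 TPM were the lowest, with Anxa6 above Anxa1 in 14 of 15 libraries. The order of group means varied below Anxa3. Anxa2 was 3 in order in wild-type microbead retinas, 6 in wild-type sham and Apoe-/- microbead, and 5 in Apoe-/- sham retinas. Anxa7 stood ahead of Anxa5 in Apoe-/- microbead retinas, while Anxa5 was 2 in order in the other groups.

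In wild-type retinas, on the CPM scale, Anxa2 and Anxa5 were higher in all 3 microbead libraries than in any of the 4 sham libraries. The same held for 6.32% of the genes tested, which do not include Anxa2. Anxa5 missed the threshold of the test across all genes, and Anxa2 had too few reads to enter it. The other annexins overlapped between the groups on the CPM scale, while on the TPM scale Anxa4 and Anxa7 did not overlap either, as 21.7% of all genes did not upward. Of the 8 annexins, 5 were tested (Anxa3, Anxa4, Anxa5, Anxa6 and Anxa7). The quasi-likelihood test of edgeR called 0 of the 5 at a Benjamini-Hochberg adjusted p of 0.05, against 0.199% of all genes tested. Anxa5 alone had an unadjusted p under 0.05, as did 4.23% of all genes in the upward direction, and DESeq2 called 0 annexins too. The median log2 fold change of the 5 was 0.50, beside -0.01 over all genes.

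Anxa5, which lines exposed phosphatidylserine, is a protein-coding gene (ENSMUSG00000027712) of chromosome 3, minus strand, between 36448923 and 36475894 of mm10. It had 32, 93 and 40 reads in wild-type microbead libraries, against 18, 10, 21 and 20 reads in wild-type sham libraries. Scaled to library size these were 46.3, 93 and 53.4 CPM in wild-type microbead retinas and 27.3, 17.5, 25.2 and 43 CPM in wild-type sham retinas. The groups did not overlap, which held in the upward direction for 6.32% of all genes tested, and the lowest microbead library lay close above the highest sham library. The log2 fold change was 1.21 (SE 0.32, 95% interval 0.54 to 1.88), with an unadjusted p of 0.00121 and an adjusted p of 0.18 by edgeR's quasi-likelihood test. Without wild-type microbead library 2, the fold change was 0.83 with an unadjusted p of 0.0254 and an adjusted p of 1. With the rod level as a covariate it was 1.36 with an adjusted p of 0.474. In limma on log2(TPM + 1) it was 1.88 with an adjusted p of 0.0457, on a scale where the median of all genes was itself 0.59 higher with microbeads.

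Anxa2, the partner of S100a10 on membranes, is a protein-coding gene (ENSMUSG00000032231) of chromosome 9, plus strand, between 69453620 and 69491795. It had 10, 77 and 30 reads in wild-type microbead libraries, against 1, 1, 8 and 3 reads in wild-type sham libraries. These were 14.5, 77 and 40 CPM in wild-type microbead retinas and 1.52, 1.75, 9.59 and 6.45 CPM in wild-type sham retinas. The groups did not overlap, and microbead library 2 alone held 77 of the 117 reads of its group. An exact two-sided permutation test on log2(CPM + 1) gave p = 0.0286, the smallest that 35 arrangements allow, and 0.172 after Benjamini-Hochberg adjustment over the 6 tests of untested members.
Because Anxa2 failed the filter on low counts, its fold changes are taken from the same edgeR design fitted with no filter. That fit estimates the spread anew over 28112 genes, so that its SE, intervals and p-values are not on the footing of the main fit. The log2 fold change was 3.16 (SE 0.54, 95% interval 2.10 to 4.21), with an adjusted p of 4.8e-06 by edgeR's quasi-likelihood test over 28112 genes, of which 0.441% were called. Leaving out 1 library at a time gave log2 fold changes of 2.41 to 3.88, and the call held in 14 of 15 such fits. It was lost without wild-type microbead library 2 (2.41, adjusted p = 0.133 by the same edgeR test). With the rod level as a covariate the Anxa2 fold change was 3.43 (adjusted p = 0.00035 by the same edgeR test). With a minimum of 10 reads in 3 libraries, chosen after seeing the data and passed by Anxa2 only through wild-type microbead libraries, it was 3.09. The interval was 1.83 to 4.35 and the p by edgeR 5.3e-05 (4.6e-09 with no filter), adjusted 0.0278. Under that minimum the call held in 9 of 15 fits that left out 1 library. It was lost with the rod covariate (3.42, adjusted p = 0.192) and with length offsets (2.81, adjusted p = 0.147) by edgeR.

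**Figure D2:**
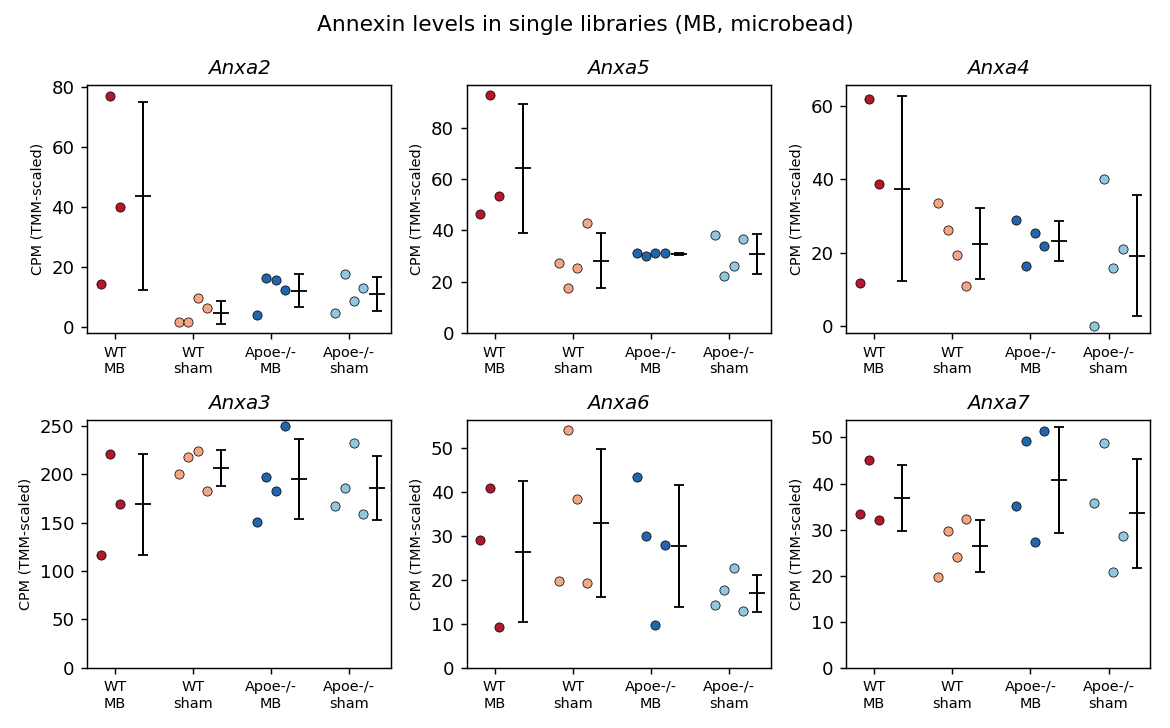
Each panel shows 1 annexin, with TMM-scaled CPM on the vertical axis, a point per library and the group mean ± SD to its right. Anxa2 and Anxa5 are above every wild-type sham library in all 3 wild-type microbead libraries, whereas Anxa4, Anxa3, Anxa6 and Anxa7 overlap on this scale.

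Anxa3, the major annexin, did not pass the test. Wild-type microbead libraries had 117, 221 and 169 CPM of Anxa3, and wild-type sham libraries 200, 218, 224 and 183 CPM. The log2 fold change was -0.29 (95% interval -0.85 to 0.28) and the groups overlapped, and on the log2(TPM + 1) scale its sign turned to 0.53. Anxa4, linked to exocytosis, had 11.6, 62 and 38.7 CPM in wild-type microbead retinas and 33.4, 26.2, 19.2 and 10.8 CPM in wild-type sham retinas, so that microbead library 1 lay inside the sham range. Anxa7 (synexin), which fuses vesicles, had 33.3, 45 and 32 CPM in wild-type microbead retinas and 19.7, 29.7, 24 and 32.3 CPM in wild-type sham retinas. Its log2 fold change was 0.50 (95% interval -0.18 to 1.18), and 1 microbead library lay just below the highest sham library. Anxa6, which has a duplicated core, had 29, 41 and 9.34 CPM in wild-type microbead retinas and 19.7, 54.2, 38.4 and 19.4 CPM in wild-type sham retinas. The adjusted p from edgeR's quasi-likelihood test was 0.84 for Anxa3, 0.773 for Anxa4, 0.744 for Anxa7 and 0.918 for Anxa6.
On the TPM scale, 2 of these 4 annexins separated the wild-type groups. Anxa4 had 4.23, 18.6 and 16 TPM in wild-type microbead retinas and 4.07, 4.21, 3.07 and 1.49 TPM in wild-type sham retinas. Anxa7 had 8.16, 9.04 and 8.24 TPM in wild-type microbead retinas and 2.28, 4.5, 4.04 and 2.88 TPM in wild-type sham retinas. Such a separation, upward on TPM, was found for 21.7% of all genes, on the scale where the median of all genes was 0.59 higher with microbeads. The difference on log2(TPM + 1) was 1.57 for Anxa4 (adjusted p = 0.112 in limma) and 1.13 for Anxa7 (adjusted p = 0.128 in limma), and neither was called.

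Anxa1 and Anxa11 were too sparse to test. Anxa1 had 0, 15 and 0 reads in wild-type microbead libraries and 0 reads in all 4 wild-type sham libraries, so that all its wild-type reads came from microbead library 2. In Apoe-/- retinas it had 0 reads in all 4 microbead libraries, against 0, 1, 0 and 2 reads in sham libraries. Anxa11, which tethers RNA granules to lysosomes, had 0 to 5 reads in any library. The exact two-sided permutation p for wild-type microbead against wild-type sham was 0.429 for Anxa1, the smallest that its values allow, and 0.657 for Anxa11.
Wild-type microbead library 2 had the highest CPM of its group for all 8 annexins, and it was the library with the largest TMM-scaled size (1000258 reads). The share of all genes with their highest CPM of the group in this library was not examined, so this is not shown to be particular to annexins.

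In Apoe-/- retinas no annexin separated the microbead from the sham libraries on CPM or TPM. The quasi-likelihood test of edgeR called 0 of the 5 tested annexins and 0% of all genes, none of the 5 had an unadjusted p under 0.05 (6.95% of all genes did), and DESeq2 called 0 annexins. The median log2 fold change of the 5 was 0.34, beside 0.01 over all genes. Anxa5 had 31.1, 30, 31.1 and 31.1 CPM in Apoe-/- microbead libraries and 38.1, 22.2, 26.1 and 36.5 CPM in Apoe-/- sham libraries. Its log2 fold change was -0.01 (95% interval -0.72 to 0.69), an interval that includes both a modest fall and a modest rise. Anxa2 had 2, 6, 8 and 8 reads in Apoe-/- microbead libraries and 2, 4, 5 and 5 reads in Apoe-/- sham libraries. With no filter its log2 fold change was 0.35 (SE 0.59, 95% interval -0.79 to 1.5, adjusted p = 0.943 by edgeR's quasi-likelihood test, where 0.132% of all genes were called).
The other 4 tested annexins also overlapped between the Apoe-/- groups. Anxa3 had 151 to 250 CPM with microbeads and 159 to 233 CPM with sham injection, and Anxa4 had 16.4 to 29 CPM with microbeads and 0 to 40 CPM with sham injection. Anxa6 had 9.72 to 43.5 CPM with microbeads and 13 to 22.6 CPM with sham injection, a log2 fold change of 0.68 (adjusted p = 0.77 by edgeR's quasi-likelihood test). Anxa7 had 27.2 to 51.3 CPM with microbeads and 20.9 to 48.8 CPM with sham injection.

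The difference between the Apoe-/- and the wild-type response did not pass the test for any annexin. The edgeR test called 0 of the 5, as of all genes (0%), with an unadjusted p under 0.05 for Anxa5 alone (3.39% of all genes). For Anxa5 the Apoe-/- response minus the wild-type response was -1.22 (SE 0.47, 95% interval -2.20 to -0.25, unadjusted p of 0.0168, adjusted p of 1 by edgeR's quasi-likelihood test). For Anxa2, with no filter, it was -2.81 (SE 0.82, adjusted p of 0.242 by the same edgeR test, where 0.16% of all genes were called). With the rod level as a covariate the Anxa5 difference was -1.44 (adjusted p of 0.991) and the Anxa2 difference was -3.18 (adjusted p of 0.562), both by edgeR. A response seen in wild type and not in Apoe-/- retinas is therefore not shown to differ between genotypes at this depth.

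**Figure D3:**
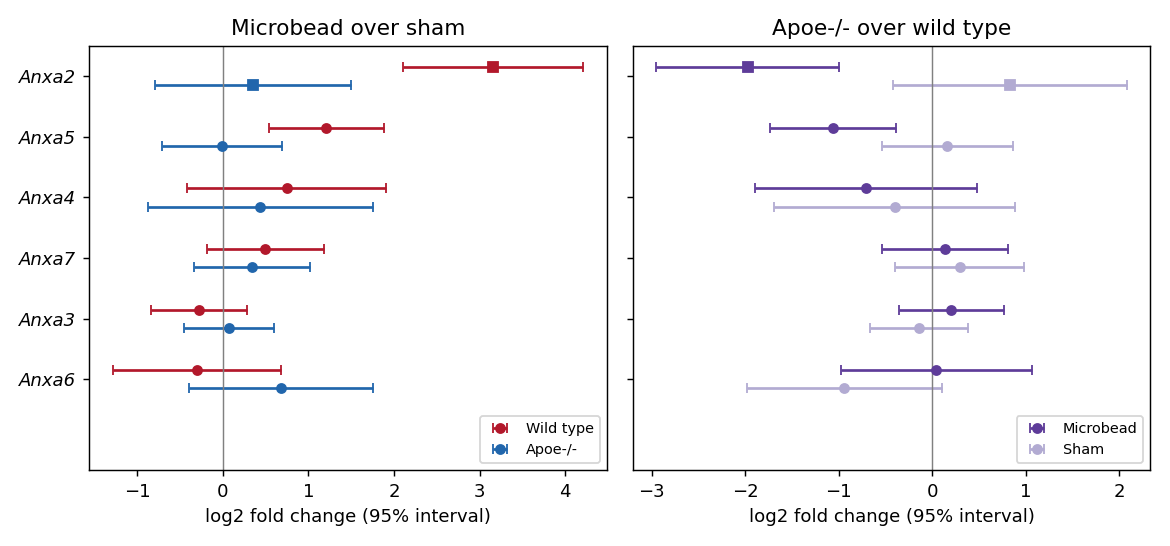
Points are log2 fold changes from edgeR with 95% intervals, for microbead over sham in each genotype on the left and Apoe-/- over wild type after each injection on the right. Squares mark Anxa2, taken from the fit with no filter on low counts, and its intervals rest on another estimate of spread than the other intervals. In wild type the intervals of Anxa2 (2.10 to 4.21) and Anxa5 (0.54 to 1.88) lie above 0, and all the others in the left panel include 0.

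Among microbead-injected retinas, every Apoe-/- library was below every wild-type library in Anxa5, but the difference was not called. The 31.1, 30, 31.1 and 31.1 CPM of the Apoe-/- microbead libraries all lay below the 46.3, 93 and 53.4 CPM of the wild-type microbead libraries, a separation that 3.7% of all genes showed in the downward direction. The log2 fold change was -1.06 (SE 0.32), with an unadjusted p of 0.00376 and an adjusted p of 0.48 by edgeR's quasi-likelihood test. That test called 0 of the 5 annexins and 0.046% of all genes. An unadjusted p under 0.05 was found for Anxa5 alone of the 5 (7.19% of all genes). Anxa2 had 4.14, 16.4, 15.6 and 12.4 CPM in Apoe-/- microbead libraries and 14.5, 77 and 40 CPM in wild-type microbead libraries, and the groups overlapped. In reads (2, 6, 8 and 8 in Apoe-/- against 10, 77 and 30 in wild type) and in TPM (0.421 to 2.75 in Apoe-/- against 3.45 to 26.3 in wild type) the groups did not overlap for Anxa2. Such a downward separation on TPM was found for 24.9% of all genes, on a scale where the median difference of all genes was -0.735. Reads are not scaled to library size, which after TMM was 366080 to 642804 in Apoe-/- and 690445 to 1000258 in wild-type microbead libraries. The Anxa2 log2 fold change with no filter was -1.97 (SE 0.50, adjusted p = 0.0323 by edgeR's quasi-likelihood test over 28112 genes, of which 0.26% were called). The call held in 10 of 15 fits that left out 1 library. It was lost without wild-type microbead library 2 (-1.22, adjusted p = 0.913) or 3 (adjusted p = 0.13), and without Apoe-/- microbead library 1 (adjusted p = 0.277), 3 (adjusted p = 0.067) or 4 (adjusted p = 0.0523), all by edgeR. With the rod level as a covariate the adjusted p was 0.0979 by edgeR for Anxa2 (-2.19) and 0.86 for Anxa5 (-1.18). With the minimum of 10 reads in 3 libraries Anxa2 was at -1.88 and was not called (adjusted p = 0.472 by edgeR). This comparison shares its wild-type microbead libraries with the one above.
Among sham-injected retinas, 0 of the 5 annexins were called between Apoe-/- and wild type by edgeR's quasi-likelihood test or DESeq2, and 0.0153% of all genes were called. Of the 5, 0 had an unadjusted p under 0.05, against 8.68% of all genes. Anxa6 had the smallest p, with 14.3, 17.8, 22.6 and 13 CPM in Apoe-/- sham libraries and 19.7, 54.2, 38.4 and 19.4 CPM in wild-type sham libraries. Its groups overlapped (log2 fold change -0.94, SE 0.50, unadjusted p of 0.0747, adjusted p of 0.607 by edgeR's test). The names of the deposited tables place each genotype under its own plate letter, so that genotype cannot be told apart from plate letter.

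The make-up of the annexin pool differed between the wild-type groups, with no test run. As a share within each library it cannot be altered by library scaling, but it rests on the length correction of TPM. Anxa3 made up 52% ± 2.66 of the summed annexin TPM in wild-type microbead retinas (SD, n = 3, range 48.9 to 53.6%) and 73.2% ± 1.74 in wild-type sham retinas (SD, n = 4, range 71.6 to 74.9%). The ranges did not overlap, and how often shares within other sets of genes separate these groups was not examined. Anxa2 made up 10.1% ± 4.17 with microbeads and 1.85% ± 1.5 with sham injection, and Anxa5 made up 16.2% ± 2.32 with microbeads and 8.29% ± 3.57 with sham injection. In Apoe-/- retinas the Anxa3 share was 64.9% ± 6.92 with microbeads and 66% ± 11.4 with sham injection (SD, n = 4 each), and the ranges overlapped. A share shows unequal change among the annexins and does not say which of them moved. The summed annexin TPM was 135 ± 72.4 in wild-type microbead retinas, 60.8 ± 15.6 in wild-type sham, 58.6 ± 23.6 in Apoe-/- microbead and 49 ± 13 in Apoe-/- sham retinas, and such a sum depends on how much of the library total the satellite takes.

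**Figure D4:**
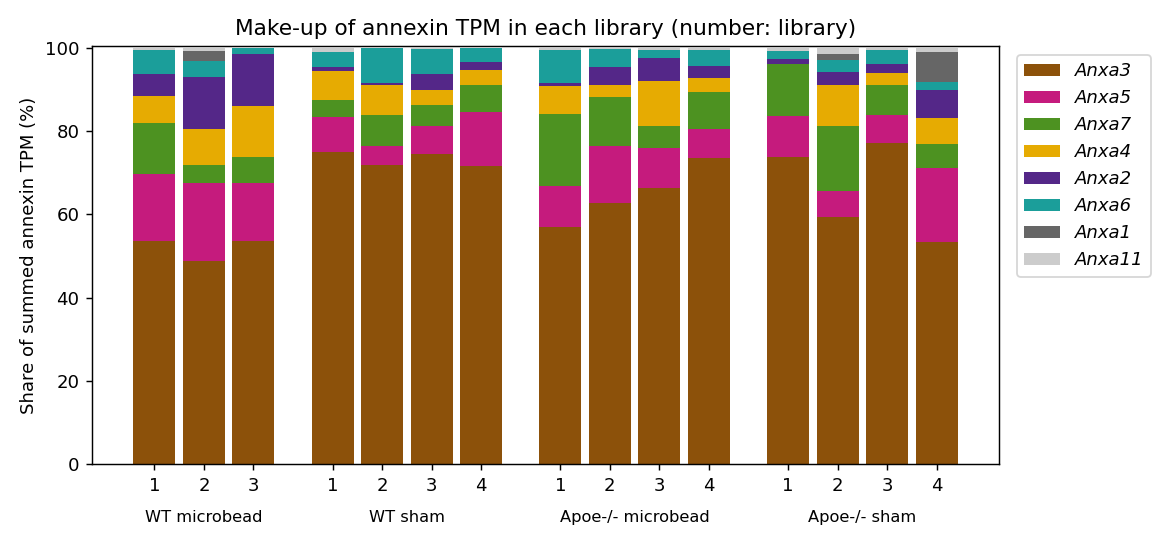
Each bar is 1 library and shows how the summed TPM of the 8 annexins divides among them, in percent, with libraries numbered within their group. Anxa3 takes 48.9 to 53.6% in the wild-type microbead libraries and 71.6 to 74.9% in the wild-type sham libraries, and its ranges overlap between the Apoe-/- groups.

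The reads of each annexin were split among its annotated transcripts by the authors' software. The protein-coding transcript Anxa5-201 took 94.6% of Anxa5 reads over all libraries, and Anxa2-201 took 98% of Anxa2 reads in wild-type microbead retinas and 62.9% of the 13 reads in wild-type sham retinas. Anxa3 reads went mainly to Anxa3-201 (69.4%) and Anxa3-205 (25.3%), both protein coding and both present in 15 of 15 libraries. For Anxa4, 64.1% of reads were given to Anxa4-204, a transcript annotated for nonsense-mediated decay. This share was 43.1% in wild-type microbead retinas, 85.9% in wild-type sham, 66.9% in Apoe-/- microbead and 90.6% in Apoe-/- sham retinas, pooled over the libraries of a group with no test. Single libraries scattered. Anxa4-204 had 0, 21.3 and 21.3 of 8, 62 and 29 Anxa4 reads in wild-type microbead libraries. In wild-type sham libraries it had 19.6, 12.2, 13.4 and 4.45 of 22, 15, 16 and 5 reads. In Apoe-/- microbead library 3 it had 0 of 13 reads.
Anxa6 has transcripts with and without an exon of 18 bases, exon 21 of 26, at chr11:54987051-54987068 on the minus strand. It is shown in capitals between 15 bases of the exons on each side, 5′ to 3′, because Anxa6-202 has it and Anxa6-201 does not.
Anxa6-202: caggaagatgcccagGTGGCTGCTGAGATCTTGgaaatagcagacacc
Only Anxa6-202, with the exon, had reads in 5 libraries, only Anxa6-201, without it, had reads in 10, and no library had both. Anxa7-201 and Anxa7-207 likewise never had reads in the same library (3 and 12 libraries). How far such all-or-none splits come from the estimation of so few reads was not tested.

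Partner genes of the annexins did not pass the test in any of the 5 comparisons. The 6 S100 partners and the 3 formyl peptide receptors were too sparse to be tested. S100a10, the partner of Anxa2, had 0, 2 and 2 reads in wild-type microbead libraries and 6, 0, 1 and 2 reads in wild-type sham libraries, and so did not separate the groups as Anxa2 did. S100a1, a calcium sensor, had 4, 13 and 4 reads in wild-type microbead libraries and 0, 1, 0 and 2 reads in wild-type sham libraries, without overlap in reads, and S100b had 1, 2 and 4 reads with microbeads and 0 reads in all 4 sham libraries. Both had too few reads for the test. On CPM, S100a1 was at 5.34 to 13 with microbeads and 0 to 4.3 with sham injection, and S100b at 1.45 to 5.34 and 0. The 6.32% of genes separated upward on CPM covers only genes that passed the filter, which S100a1 and S100b did not. Of the plasminogen and Anxa2 surface partners, 2 of 5 were tested (Plau and Plgrkt) and 0 were called. Plaur, the urokinase receptor, was not among them, with 7, 57 and 13 reads in wild-type microbead libraries and 4, 5, 6 and 7 reads in wild-type sham libraries. Ahnak, a large scaffold that binds Anxa2 with S100a10, had 2, 30 and 1 reads in wild-type microbead libraries and 4, 0, 0 and 0 reads in wild-type sham libraries. For both, microbead library 2 held most of the reads, as it did for Anxa1 and Anxa2.
Of the ALG-2, ESCRT and membrane repair genes, which include Pdcd6, the partner of Anxa7 and Anxa11, 8 of 11 were tested and 0 were called, with a median log2 fold change of -0.05 in wild type and -0.06 in Apoe-/- retinas. Vps4b, an ATPase that takes ESCRT filaments apart, had the smallest p of that list (-0.65 in Apoe-/- retinas, unadjusted p of 0.0463, adjusted p of 0.7 by edgeR's quasi-likelihood test).

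Genes that handle phosphatidylserine gave the lowest p-values of the partner lists. Atp8a1, a flippase that keeps phosphatidylserine on the inner leaflet, had 75.3, 82 and 132 CPM in wild-type microbead retinas and 68.3, 57.7, 46.8 and 58.1 CPM in wild-type sham retinas. It had 78.7, 107, 161 and 79.3 CPM in Apoe-/- microbead retinas and 61.9, 8.88, 64.4 and 49.6 CPM in Apoe-/- sham retinas. The groups did not overlap in either genotype, which 6.32% of all genes showed upward in wild type and 1.55% in Apoe-/- retinas. The log2 fold change was 0.74 in wild type (SE 0.37, adjusted p = 0.66) and 1.12 in Apoe-/- retinas (SE 0.37, adjusted p = 0.7) by edgeR's quasi-likelihood test, and neither was called.
Cd300lf, a receptor for phosphatidylserine, had 33.3, 87 and 57.4 CPM in wild-type microbead retinas and 15.2, 29.7, 9.59 and 17.2 CPM in wild-type sham retinas, without overlap. Its log2 fold change was 1.76 (SE 0.65, unadjusted p of 0.014, adjusted p of 0.511 by edgeR's quasi-likelihood test). In all, 3 of 8 flipping and scrambling genes, 4 of 7 other phosphatidylserine binders, 7 of 7 glucocorticoid-response genes and 3 of 5 phospholipases A2 were tested, and 0 of them were called.

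By a fixed measure of likeness, the root mean square difference of centred log2 CPM over the 15 libraries, the tested genes nearest to Anxa3 were Ppp1ca (0.174), Actb (0.197) and Canx (0.207). Ppp1ca encodes a catalytic subunit of protein phosphatase 1, Actb encodes beta-actin and Canx the chaperone calnexin. Nearest to Anxa5 were Prdx1 (0.294), a peroxiredoxin, Pnpla7 (0.317), a lysophospholipase, and Tecpr1 (0.33), a factor of autophagosome maturation. The root mean square of the centred profile itself was 0.268 for Anxa3 and 0.241 to 0.287 for its nearest genes. It was 0.512 for Anxa5, 0.479 for Prdx1, 0.416 for Pnpla7 and 0.342 for Tecpr1. The Tecpr1 difference is thus almost as large as its own spread, and nearness here does not show that genes rise and fall together. The other annexins had under 20 reads per library on average and were not matched.

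Vim, which encodes vimentin and was listed as a marker of Mueller glia and astrocytes, was, like Anxa2, highest in wild-type microbead library 2. It had 10, 170 and 15 reads in wild-type microbead libraries, against 0, 1, 4 and 0 reads in wild-type sham libraries. The whole list summed to 127 to 284 CPM in wild-type microbead retinas and 89.1 to 155 CPM in wild-type sham retinas, with reads in 4 of its 6 genes with microbeads and in 5 of 6 with sham injection. The defining marker Rlbp1 had 0 reads in all 3 wild-type microbead libraries and 1, 2, 0 and 0 reads in wild-type sham libraries, and Aqp4 had 0 reads in both groups. Gfap had 1, 0 and 2 reads with microbeads and 0, 1, 1 and 0 reads with sham injection. Glul had 66, 97 and 61 reads with microbeads and 59, 36, 108 and 50 reads with sham injection, and Slc1a3 had 30, 17 and 17 reads with microbeads and 24, 11, 16 and 10 reads with sham injection. Neutrophils carry much Anxa1 and Anxa3. Of their markers, S100a8 had 1 read, in wild-type microbead library 2, while S100a9, Ly6g, Camp, Ngp and Retnlg had 0 reads in the wild-type microbead libraries. Monocyte markers summed to 10.1 to 20 CPM in wild-type microbead retinas and to 3.49 to 25.8 CPM in wild-type sham retinas. The cells were sorted as Ly6c-, and Ly6c2 had 1 to 2 reads per wild-type microbead library and 0 to 2 per wild-type sham library. Among the monocyte markers, Ccr2 had 5, 19 and 5 reads with microbeads and 7, 1, 0 and 5 reads with sham injection. Border macrophage markers summed to 31.9 to 65 CPM in wild-type microbead retinas (6 of 6 genes with reads) and 25.8 to 62.3 CPM in wild-type sham retinas (5 of 6, with Cbr2 at 0). Of that list Ms4a7 did not overlap, at 24.6, 52 and 34.7 CPM with microbeads and 15.2, 10.5, 1.2 and 15.1 CPM with sham injection (log2 fold change 1.89, SE 0.50, adjusted p = 0.18 by edgeR's quasi-likelihood test). The part of these cells in the Anxa2 and Anxa5 differences was not tested.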

How the data were processed

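Bulk RNA of 15 sorted microglia libraries was analysed from 1 transcript table per library and 1 gene table of the series. Per the file headers, the authors deposited estimated counts of reads per transcript, TPM and effective lengths in bases from Salmon, and a gene TPM table. The submitters' processing notes name Salmon 1.4.0, DESeq2 1.30.1 and R 4.0.3, with build mm10. The library type, and so the use of strand, is not given in the sources used here.

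Deposited estimated counts were summed per gene with GENCODE M21 (116023 of 116945 transcripts) and rounded. Unassigned transcripts held 0.217 to 0.354% of reads and were left out. All 120 annexin TPM values matched the authors' deposited gene TPM within a relative 0.001. No column lacked a sample.

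Differences were tested on these counts in R 4.3.3 by edgeR 4.0.16 (quasi-likelihood test, TMM, filterByExpr, 1 model of 4 groups, 5 contrasts, two-sided, Benjamini-Hochberg over 6521 genes, threshold 0.05). Anxa2, below that filter, was taken from the same design fitted with no filter, where the spread was estimated anew. The interaction contrast is the Apoe-/- response minus the wild-type response. Alternatives used DESeq2 1.42.0 and limma 3.58.1, and the closing section gives their effect. In simulated wild-type microbead and sham data (6521 genes) the test recovered 73% of genes changed by a log2 of 2 and 97% at a log2 of 3, and called 10 unchanged genes. The simulation gave all genes 1 common spread (biological coefficient of variation 34.4%) and no outlying library. The rates may therefore not hold for genes or libraries that vary more. P-values measure the spread between retinas, which may be technical, and reads without molecular identifiers make floors cover counting error only. The same retina numbers did not pair libraries between groups. The annexins, partner lists and markers were chosen with earlier results of these data known. All annexins are named, and of each partner list any called member and at most 4 members by smallest unadjusted p after microbeads, besides Plaur, Ahnak, S100a10, S100a1 and Vim, chosen after their values were seen.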

Additional observations from a re-analysis of the deposited data

Results flagged for a closer look

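One value stood apart from its group. Anxa5 in Apoe-/- microbead library 2 was 30 CPM, while the other 3 libraries of that group were at 31.1 CPM, so that the gap was 0.963 of the whole range of the group, past Dixon's limit for 4 samples. The distance is small beside the counting error of the 11 to 20 Anxa5 reads in these libraries. Of 21 groups of annexin values examined in this way, chance marks about 1 in 20.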

How the results depend on the processing

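Depth limits these results: Anxa1, Anxa2 and Anxa11 failed the filter on low counts, and Anxa4 to Anxa7 had few reads. In wild-type microbead against sham, the number of annexins called was 0, and it was 1 with no filter (Anxa2, adjusted p = 4.8e-06 by edgeR), 1 with limma on log2(TPM + 1) (Anxa5), 1 with a minimum of 10 reads in 3 libraries (Anxa2, a filter chosen after seeing the data that Anxa2 passed only through wild-type microbead libraries), and 0 to 1 when each library was left out. The 1 was Anxa2 without wild-type microbead library 1, where it passed the filter only through wild-type microbead libraries 2 and 3. For Apoe-/- against wild type with microbeads the number called was 0, and 1 with no filter (Anxa2). The cause was not tested. In the other 3 comparisons it stayed at 0 in the alternatives run. Over 25 settings the Anxa5 log2 fold change in wild type was 0.83 to 1.88, positive in 25.

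Counts over all genes moved more. Wild type had 13 genes called, and 124 with no filter, 5 with a minimum of 10 reads in 7 libraries, 36 with DESeq2, 87 on TPM, 33 from its own groups alone, 3 with the rod covariate, 24 with the 3-library filter and 0 to 29 leaving out a library (0 without wild-type microbead library 2). Apoe-/- had 0, and 37 with no filter. The interaction had 0, and 45 with no filter, 5 on TPM and 1 with the rod covariate. Apoe-/- against wild type had 1 in sham retinas, and 41 with no filter and 3 with the rod covariate. In microbead retinas it had 3, and 73 with no filter, 1 with the 7-library minimum, 26 with DESeq2, 195 on TPM, 1 with length offsets and 1 to 7 leaving out a library.

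With the replicate block, retina numbers being no pairing here (correlations of deviations from -0.161 to 0.223), 0 annexins were called in every comparison, and genes called were 7 in wild type and 1 for Apoe-/- against wild type with microbeads.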

Other observations

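A pair of further list genes, chosen after their values were seen, are given as values. Pla2g7, which encodes a phospholipase that degrades platelet-activating factor, had 17, 36 and 4 reads in wild-type microbead libraries and 1, 0, 0 and 7 reads in wild-type sham libraries, with overlap and too few reads for the main test. Tsc22d3, the glucocorticoid-induced leucine zipper gene, had 47.6, 48.8, 52.2 and 52.2 CPM in Apoe-/- sham libraries and 114, 64.6, 112 and 92.5 CPM in wild-type sham libraries. These groups did not overlap (log2 fold change -0.93, SE 0.36, adjusted p = 0.555 by edgeR's quasi-likelihood test), as 2.39% of all genes did not in the downward direction. Of the annexins outside the 8, Anxa8 had 0 to 3 reads, Anxa9 0 to 8 and Anxa10 0 to 1 in any library, and Anxa13 was not analysed here.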
